A study of Mus musculus with 24 samples.

Results

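The 9 genes described here encode phosphatases and adaptor proteins that act back on MAP kinase signalling: Dusp1, Dusp4, Dusp5, Dusp6, Dusp14, Spry2, Spry4, Spred1 and Spred2. They are a list of symbols, matched through Ensembl identifiers, that was drawn up with earlier results of these data known. All 9 were found among the 55414 genes of the count table, and all 9 were among the 14464 genes that reached at least 30 counts in some library and were tested. The counts came from the visual cortex of 24 male C57BL/6J mice aged 8 to 10 weeks and housed on a reversed light cycle, with 6 mice per group and 1 library per mouse. Mice of the dark and light groups were given PBS, the vehicle, and mice of the psilocybin-dark and psilocybin-light groups were injected with 5 mg/kg psilocybin. In the dark phase of their cycle they were placed in light or kept in darkness, and the tissue was taken 2.5 h later. Psilocybin is a tryptamine that the body converts to psilocin, an agonist of serotonin receptors.

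The light exposure of every library is uncertain, because 2 sources give it differently. The headings of the study's supplementary count table, followed here, make libraries 1 to 6 dark, 7 to 12 psilocybin-dark, 13 to 18 light and 19 to 24 psilocybin-light. In the labels of the samples the drug is the same but light and dark are swapped throughout, so that they read PBS-Light, Psi-Light, PBS-Dark and Psi-Dark in that order. If the labels are right, every difference between light and dark, and the interaction, keeps its size and changes its sign. The psilocybin-dark against dark difference would then be the effect of psilocybin under light, and the psilocybin-light against light difference the effect of psilocybin in darkness. The drug given to each mouse is the same in both sources. Group names below carry this limit throughout.

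MAP kinases such as ERK are switched on by phosphorylation below receptors, Ras, Raf and MEK, and in neurons they carry signals from calcium entry and growth factors to the nucleus. Dual-specificity phosphatases (Dusp genes) remove the activating phosphates from MAP kinases, and several of them are themselves transcribed when the pathway is active. Sprouty proteins block signalling between receptor tyrosine kinases and Ras or Raf, and Spred proteins bring neurofibromin, an inactivator of Ras, to the membrane.

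Some libraries stood apart, and this touches every comparison with the dark group. Total counts ranged from 13552516 to 17906994 per library. All 6 cortical excitatory markers were detected, and their summed level was lowest in dark library 1 (796 CPM, counts scaled to the library total) and dark library 6 (1347 CPM), against 1828 to 2499 CPM in all others. The summed level of the 5 cerebellar markers was 661 to 2096 CPM in dark libraries 1 and 6, psilocybin-dark library 12 and light library 18, and 22.6 to 133 CPM in the other 20. The 9 hippocampal markers summed to 207 to 528 CPM in the dark group and to 154 to 206 CPM in the 18 mice outside it, so the groups did not overlap, and of the 8 tested against the light group 5 were lower in light, 1 was higher and 2 were not called. Of the 6 cortical excitatory markers 4 were higher in each of the 3 comparisons with dark (list medians 1.14 for light, 1.04 for psilocybin-dark and 0.84 for psilocybin-light), and 3 had an interaction below 0 (median -1.33). Of 4 astrocyte markers 1 was higher and 2 were lower in light and in psilocybin-dark mice, and 1 was higher and 3 were lower in psilocybin-light mice. None of 5 oligodendrocyte markers was called in these comparisons, with sums of 1046 to 7414 CPM in the dark group and 2261 to 5359 CPM in the other mice. In bulk tissue, fewer cells of a type and less RNA per cell cannot be told apart. The part of these markers in the results was not tested beyond the values given beside them.

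Promoter sequences are given before the values, because a few members carry elements through which activity is known to reach genes. A cyclic AMP response element (CRE) is bound by CREB, and a CArG box by serum response factor. Sequences are the 250 bases before the start of the Ensembl canonical transcript, read 5′ to 3′ from the GRCm39 genome on the gene's strand, with CRE, shortened CRE (TGACG) and CArG box matches on either strand in capitals. Dusp1 and Dusp5 are printed for their motifs, Spry2 as the member with the lowest adjusted p against the dark group in the light comparison, and Dusp6, with none of these letters, for contrast.
Dusp1, minus strand, chr17:26727494-26727743: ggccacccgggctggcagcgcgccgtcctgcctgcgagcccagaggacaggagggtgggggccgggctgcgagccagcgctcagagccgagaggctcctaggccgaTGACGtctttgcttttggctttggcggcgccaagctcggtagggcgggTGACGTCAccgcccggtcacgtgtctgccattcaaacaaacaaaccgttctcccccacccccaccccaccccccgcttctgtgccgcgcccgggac
Dusp5, plus strand, chr19:53517282-53517531: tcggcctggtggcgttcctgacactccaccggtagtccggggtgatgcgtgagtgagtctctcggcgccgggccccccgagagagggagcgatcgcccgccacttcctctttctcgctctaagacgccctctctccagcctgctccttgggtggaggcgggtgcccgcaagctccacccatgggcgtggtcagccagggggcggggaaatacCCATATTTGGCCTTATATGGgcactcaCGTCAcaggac
Spry2, minus strand, chr14:106134793-106135042: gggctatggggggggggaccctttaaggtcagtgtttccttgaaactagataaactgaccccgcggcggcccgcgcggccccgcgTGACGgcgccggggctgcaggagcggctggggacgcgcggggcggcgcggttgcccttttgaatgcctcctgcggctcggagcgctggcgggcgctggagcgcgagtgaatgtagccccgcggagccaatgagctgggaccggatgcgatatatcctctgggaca
Dusp6, plus strand, chr10:99098818-99099067: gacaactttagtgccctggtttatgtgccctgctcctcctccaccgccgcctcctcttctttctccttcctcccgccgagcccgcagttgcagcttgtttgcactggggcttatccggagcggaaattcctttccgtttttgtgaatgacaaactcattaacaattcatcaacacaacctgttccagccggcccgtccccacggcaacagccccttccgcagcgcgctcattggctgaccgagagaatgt
The full CRE, TGACGTCA, was present in Dusp1 alone among the 9 members, beginning 96 bases before the start, and in 2.04% of the 13550 protein-coding promoters searched. The shortened CRE, TGACG, which the full element contains, was present in Dusp1, Dusp4, Dusp5 and Spry2 and in 22.7% of all. The CArG box was present in Dusp5 alone, at 38 and 28 bases before the start, and in 1.17% of all. The AP-1 site TGANTCA, the EGR site GCGGGGGCG and the Ets site CCGGAAGT were in none of the 9, and in 4.43%, 3.35% and 3.48% of all promoters. These matches are descriptions of letters in a window and not of binding.

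On the scale of CPM per kilobase of exon, which allows levels to be compared between genes, the mean over the 24 mice was highest for Spred1 (39.0), followed by Dusp6 (24.4), Spred2 (19.2) and Dusp1 (14.5). Spry2 (12.2) and Dusp14 (12.1) were next to each other, above Dusp5 (10.2) and Dusp4 (7.41), and Spry4 was lowest (2.88). The order changed with the group: the mean of Dusp14 was 5.88 ± 2.48 (SD, n = 6) in the dark group, below that of Dusp4 (6.37 ± 1.58), and 14.3 ± 2.12 in the light group, above that of Spry2 (13.5 ± 1.17). Neighbours in this order often differed by less than their SD, as Dusp14 and Spry2 did in the light group.

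**Figure D1:**
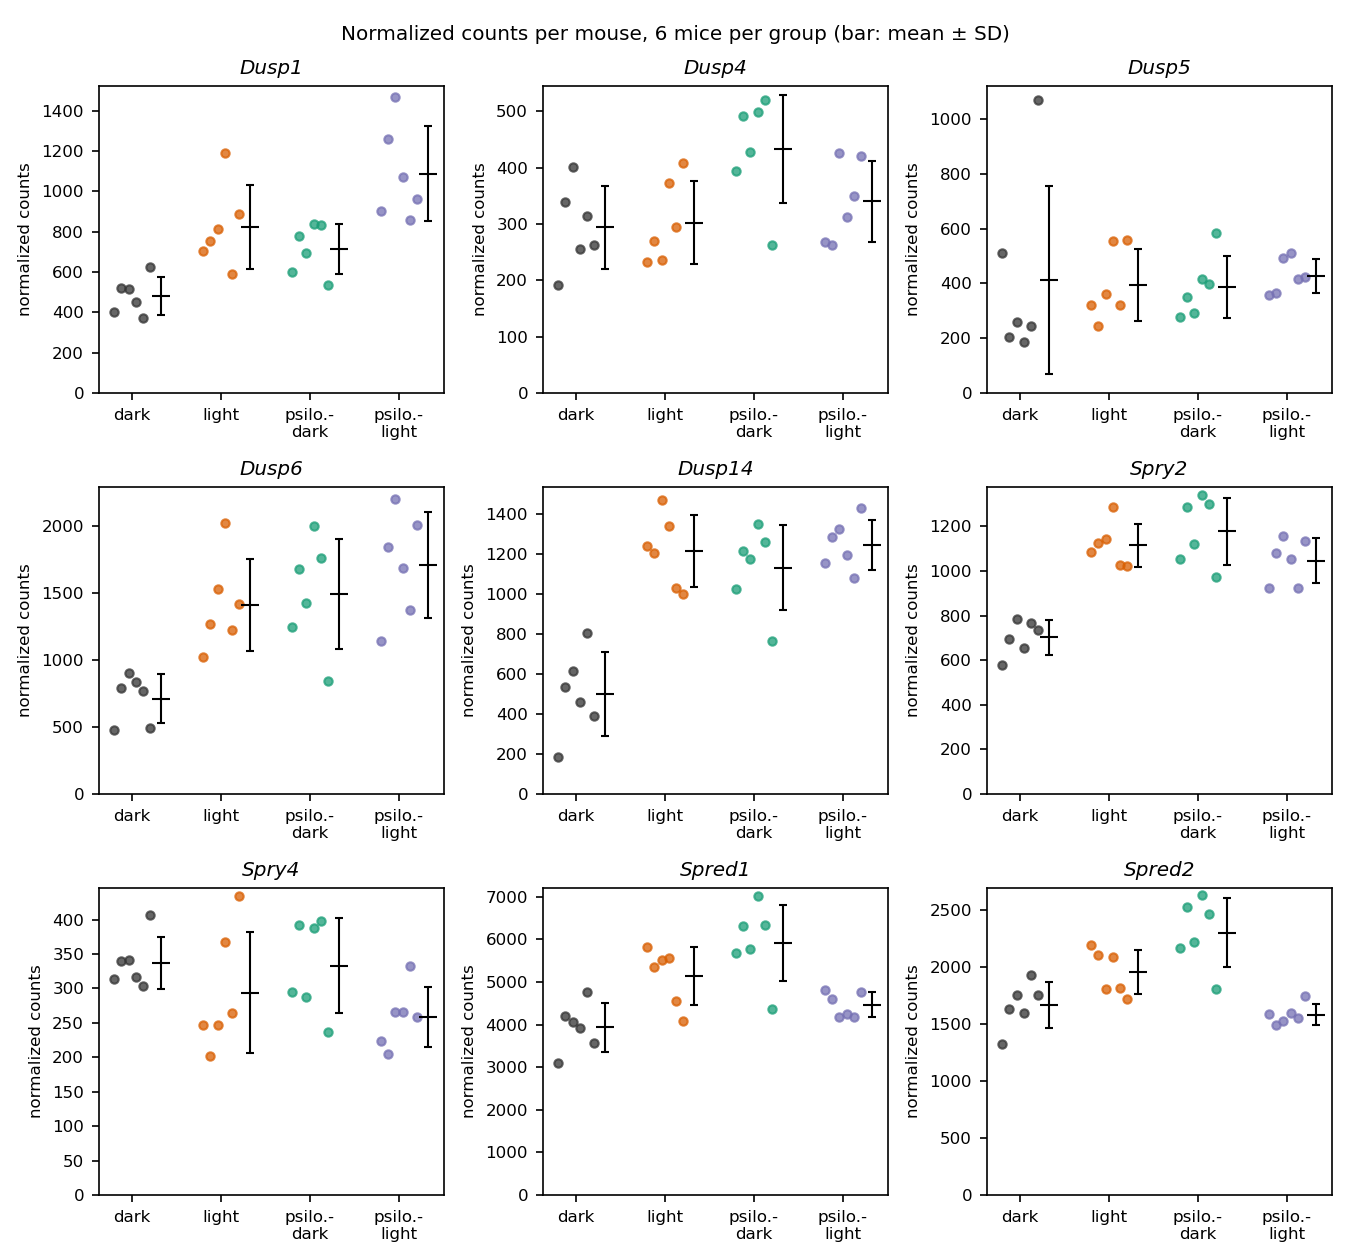
Normalized counts of the 9 members (vertical axis from 0) in each of the 24 mice, by group, with 1 point per mouse and a bar for the mean ± SD of 6 mice. All dark mice lie below all other mice for Spry2, while for Dusp5 dark library 6 stands at 1070.1 above every other mouse.

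Light was compared with darkness in mice without drug, which asks what the onset of light does to these genes. Of the 9 members, 6 were higher in the light group (adjusted p under 0.05, edgeR quasi-likelihood test with Benjamini-Hochberg adjustment over all genes tested) and none was lower. Over all genes 31.9% were called, and 15.4% were called higher. The 3 phosphatases Dusp14, Dusp6 and Dusp1 had the largest changes, followed by Spry2, Spred1 and Spred2, while Dusp4, Dusp5 and Spry4 were not called. The groups did not overlap for 3 members, Dusp6, Dusp14 and Spry2, as for 10% of all genes.

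Dusp14, a small phosphatase without the kinase-docking domain of the larger ones, lay between 185 and 806 normalized counts in dark mice (median 496) and between 1002 and 1471 in light mice (median 1223). Every light mouse was above every dark mouse, and the dark group's 2 lowest mice were libraries 1 and 6. The log2 fold change was 1.29 ± 0.21 (SE, adjusted p = 0.0001), a fold of 2.44. Without dark libraries 1 and 6 it was 1.02 (adjusted p = 2.23e-05).

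Dusp6, a cytoplasmic phosphatase selective for ERK, lay between 476 and 906 in dark mice (median 778) and between 1026 and 2019 in light mice (median 1341). The groups did not overlap. It rose by 0.99 ± 0.21 on the log2 scale (adjusted p = 0.000977), and by 0.79 without dark libraries 1 and 6 (adjusted p = 0.00516). Dusp1, a nuclear phosphatase that acts on p38, JNK and ERK, had 370 to 623 counts in the dark group (median 485) and 589 to 1191 in the light group (median 783). Its groups overlapped only in that the lowest light mouse was below the highest dark mouse, library 6. Its log2 fold change was 0.78 ± 0.17 (adjusted p = 0.00108).

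Spry2, a Sprouty protein expressed widely, had 578 to 785 counts in dark mice (median 714) and 1023 to 1287 in light mice (median 1106). Every light mouse was above every dark mouse. It rose by 0.67 ± 0.09 (adjusted p = 8.57e-06), a fold of 1.59. Spred1, the most abundant member, lay between 3099 and 4758 in dark mice (median 3993) and between 4079 and 5817 in light mice (median 5434), so the groups overlapped, and its log2 fold change was 0.39 ± 0.11 (adjusted p = 0.00725). Spred2 had 1328 to 1926 counts in the dark group (median 1696) and 1719.5 to 2195 in the light group (median 1952). Its change of 0.23 ± 0.09 was close to the threshold (adjusted p = 0.0468), and it was not called in 13 of 24 fits that each left out 1 library (adjusted p from 0.0202 to 0.111), those without libraries 1, 2, 4, 7, 9, 11, 13, 14, 16, 19, 21, 22 or 23. The value was 0.17 without library 1.

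Dusp5, a nuclear phosphatase specific for ERK, turned on 2 libraries. It had 509.9 counts in dark library 1 and 1070.1 in dark library 6, both libraries with high cerebellar markers, and 185 to 259 in the other 4 dark mice. The light mice ranged from 244 to 557 (median 341). With all dark mice the log2 fold change was -0.07 ± 0.34 (adjusted p = 0.894), and without dark libraries 1 and 6 it was 0.82 (adjusted p = 0.00578). The change with libraries 1, 6, 12 and 18 all left out was 0.69 (adjusted p = 0.00532). These libraries were singled out with their values known.

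Dusp4, a nuclear phosphatase induced by ERK signalling, had 192 to 401 counts in the dark group (median 289) and 232 to 409 in the light group (median 283), a log2 difference of 0.04 (95% interval from -0.35 to 0.43). Spry4 had 304 to 407 counts in the dark group (median 328) and 202 to 434 in the light group (median 256), a difference of -0.20 (interval from -0.54 to 0.14). Both intervals include changes of either sign.

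With the mean of the hippocampal markers as a covariate, no member was called between light and dark (adjusted p from 0.0836 for Spry2 to 0.829 for Spred1). The log2 fold changes of those called before became 0.71 (Dusp6), 0.63 (Dusp14), 0.38 (Spry2), 0.32 (Dusp1), 0.083 (Spred1) and -0.071 (Spred2). Of the 14464 genes 670 were called in that fit. With the mean of the cortical excitatory markers, a covariate added after seeing the data, 1 member was called, Spry2 (0.38, adjusted p = 0.0108), and 2805 genes in all. Since both marker sums differed between the dark group and the others, they and the exposure cannot be fully told apart.

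Psilocybin was next compared with vehicle in mice kept in darkness. Of the 9 members 7 were higher in the psilocybin-dark group and none was lower, against 24.7% of all genes called in either direction and 11.9% called higher. They were the 6 members called between light and dark, together with Dusp4. This comparison and the previous one share the dark mice. Only Spry2 had groups that did not overlap, as for 5.58% of all genes.

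Dusp14 lay between 764 and 1351 under psilocybin in darkness (median 1196) and rose by 1.18 ± 0.21 on the log2 scale (adjusted p = 0.000364). Dusp6 ranged from 842 to 2001 (median 1552), with a rise of 1.07 ± 0.21 (adjusted p = 0.000747). In both genes the lowest mouse of the group was library 12, which lay within the dark range, and the other 5 mice lay above it. Dusp1 had 537 to 840.5 counts (median 737) and rose by 0.57 ± 0.17 (adjusted p = 0.0144), with groups that overlapped.

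Spry2 lay between 972 and 1339 counts (median 1204) in the psilocybin-dark group, and every mouse was above every dark mouse. Its rise of 0.75 ± 0.09 had the lowest adjusted p of the members here (1.11e-05). Spred1 ranged from 4370.2 to 7013 (median 6043) with a rise of 0.59 ± 0.11 (adjusted p = 0.000364), and Spred2 from 1809.7 to 2628 (median 2339) with a rise of 0.47 ± 0.09 (adjusted p = 0.000528). In both Spred genes library 12 was again the lowest mouse of its group.

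Dusp4 lay between 263 and 520 counts under psilocybin in darkness (median 460), and library 12 was the lowest, with the next mouse at 395 counts. Its log2 fold change was 0.56 ± 0.19 (adjusted p = 0.0316), and it was not called in the fits without library 1, 4, 8, 10 or 11 (adjusted p up to 0.0762) or without dark libraries 1 and 6 (0.41, adjusted p = 0.111). Dusp5 had a difference of -0.09 ± 0.34 (adjusted p = 0.874), which became 0.80 without dark libraries 1 and 6 (adjusted p = 0.0084). Spry4 had a difference of -0.02 (95% interval from -0.35 to 0.32).

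With the hippocampal covariate no member was called in this comparison (adjusted p from 0.209 to 0.904), nor was any other gene. With the cortical excitatory covariate 1 member was called, Spry2 (0.45, adjusted p = 0.0165), and 785 genes in all.

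Psilocybin with light was compared with darkness without drug. Here 4 of 9 members were higher and none was lower, against 38.4% of all genes called and 17.4% called higher. They were Dusp1, Dusp6, Dusp14 and Spry2, and in all 4 the groups did not overlap, as for 15.8% of all genes. Spred1 and Spred2 were not called.

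Dusp1 ranged from 857 to 1468 counts in the psilocybin-light group (median 1019), the highest of the 4 groups by median, and rose by 1.18 ± 0.17 (adjusted p = 1.16e-05), a fold of 2.26. Dusp6 ranged from 1139.5 to 2204 (median 1765) with a rise of 1.27 ± 0.21 (adjusted p = 6.55e-05). Dusp14 ranged from 1079 to 1428 (median 1239) with a rise of 1.32 ± 0.21 (adjusted p = 5.02e-05). Spry2 ranged from 923 to 1157 (median 1068) and rose by 0.58 ± 0.09 (adjusted p = 2.63e-05). All these mice lay above the highest dark mouse.

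Spred1 ranged from 4181 to 4808 counts in the psilocybin-light group (median 4436), a log2 difference of 0.18 ± 0.11 from dark (adjusted p = 0.176). Spred2 ranged from 1495 to 1747 (median 1568), a difference of -0.07 ± 0.09 (adjusted p = 0.533). Both groups lay largely within the dark range. Spry4, with 204 to 332 counts (median 262), had a difference of -0.38 ± 0.16 that did not pass (adjusted p = 0.0681). It was called lower with the compared groups alone in the fit (-0.38, adjusted p = 0.02), without libraries 12 and 18 (-0.37, adjusted p = 0.0278), and in the fits without library 18 or 23 alone. Dusp5 had a difference of 0.05 ± 0.34, and of 0.94 without dark libraries 1 and 6 (adjusted p = 0.0017). With the hippocampal covariate no member was called (adjusted p from 0.066 to 0.8), of 788 genes in all. With the cortical excitatory covariate the 4 members called higher were called again and Spred2 was called lower (-0.35, adjusted p = 0.00384), of 3537 genes in all. Spred2 was also called lower with the cerebellar covariate (-0.23, adjusted p = 0.0366).

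**Figure D2:**
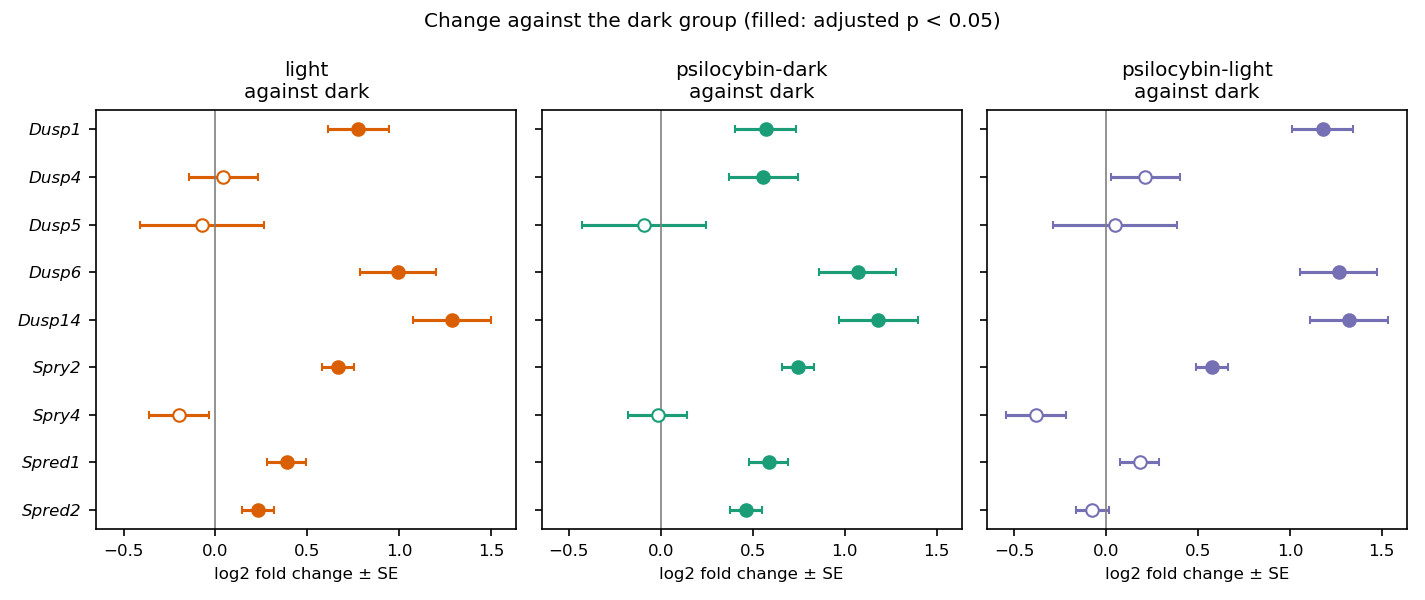
Log2 fold change ± SE (horizontal axis) of each member in the light, psilocybin-dark and psilocybin-light groups against the dark group, 6 mice each, with filled points for an adjusted p under 0.05. Dusp1, Dusp6, Dusp14 and Spry2 are filled in all 3 panels, which share the same dark mice, and Spred1 and Spred2 are filled in the first 2 only.

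Whether psilocybin added to light was asked by comparing the psilocybin-light with the light group. None of the 9 members was called by edgeR, against 0.608% of all genes, and 2 had an unadjusted p under 0.05, as did 9.69% of all genes. These were Spred2, at -0.31 ± 0.09 (adjusted p = 0.135), and Dusp1, at 0.40 ± 0.16 (adjusted p = 0.377). DESeq2 called none either. The intervals of the difference remained wide for the phosphatases, from -0.15 to 0.70 for Dusp6 and from -0.39 to 0.46 for Dusp14, so changes of this size were not excluded by the test. For Spry2 the interval was -0.27 to 0.09. Spred2 passed in 6 other fits of this comparison, namely with the hippocampal (-0.35, adjusted p = 0.0345), cerebellar or cortical excitatory covariate, with 1 surrogate variable, and without libraries 12 and 18 or 1, 6, 12 and 18.

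Light under psilocybin separated the members. Between the psilocybin-light and psilocybin-dark groups Dusp1 was higher and Spred1 and Spred2 were lower, 3 of 9 members, against 6.38% of all genes called, 2.6% higher and 3.78% lower. Groups did not overlap for Dusp1 and Spred2, as for 6.42% of all genes. Dusp1 went from a median of 737 in psilocybin-dark to 1019 in psilocybin-light mice, a log2 fold change of 0.61 ± 0.16 (adjusted p = 0.0264). Spred1 fell from a median of 6043 to 4436, a log2 fold change of -0.40 ± 0.11 (adjusted p = 0.0219). Spred2 fell from 2339 to 1568, a change of -0.54 ± 0.09 (adjusted p = 0.00118), and every psilocybin-light mouse was below every psilocybin-dark mouse.

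The call for Spred2 held in each of 24 fits that left out 1 library, that for Dusp1 was lost without library 7, 9, 12, 20 or 21 (adjusted p up to 0.0731) and that for Spred1 without library 10 or 23 (up to 0.0653). With the hippocampal covariate all 3 calls held (adjusted p = 0.0286 for Dusp1, 0.0074 for Spred1 and 0.00028 for Spred2). The hippocampal marker sums of these 2 groups were 170 to 204 and 162 to 173 CPM. Dusp4 and Spry4 were lower in psilocybin-light mice without passing (-0.35, adjusted p = 0.314, and -0.36, adjusted p = 0.212), and both were called lower with libraries 1, 6, 12 and 18 left out (-0.44 and -0.43, adjusted p = 0.0358 and 0.0279). Dusp6 and Dusp14 had differences of 0.20 and 0.14 (adjusted p = 0.663 and 0.781).

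Psilocybin in darkness and light without drug were also compared directly. None of the members was called by edgeR, against 0.456% of all genes, and 2 had an unadjusted p under 0.05, as did 14.4% of all genes. These were Dusp4, at 0.52 ± 0.19 (adjusted p = 0.166), and Spred2, at 0.23 ± 0.09 (adjusted p = 0.18). DESeq2 called none. For Dusp14 the 95% interval of the difference was -0.53 to 0.33 and for Spry2 it was -0.10 to 0.26.

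The interaction asks whether light and psilocybin together gave more or less than the sum of their separate effects on the log2 scale. It was below 0 for 4 of 9 members and above 0 for none, against 8.75% of all genes called and 4.86% called below 0. Dusp14 had -1.15 ± 0.30 (adjusted p = 0.0197), Spry2 -0.84 ± 0.12 (adjusted p = 0.00088), Spred1 -0.79 ± 0.15 (adjusted p = 0.00347) and Spred2 -0.77 ± 0.12 (adjusted p = 0.00148). For Dusp14 the means were 499 ± 210 in dark, 1214 ± 180 in light, 1132 ± 210 in psilocybin-dark and 1244 ± 126 in psilocybin-light mice (SD, n = 6 each), so the means of the 3 groups other than dark differed by less than their largest SD. For Spred2 they were 1667 ± 202, 1956 ± 196, 2301 ± 301 and 1583 ± 88.3, and the psilocybin-light mean was the lowest.

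Dusp6 had an interaction of -0.80 ± 0.29 that did not pass (adjusted p = 0.0883). It was called with 1 surrogate variable (-0.84, adjusted p = 0.0169), without libraries 12 and 18 (-0.91, adjusted p = 0.0329), without libraries 1, 6, 12 and 18 (-0.69, adjusted p = 0.0436), and without library 12 alone. Dusp1 had an interaction of -0.17 (95% interval from -0.65 to 0.31, adjusted p = 0.719). Its median was highest with both exposures, as were the medians of Dusp5, Dusp6 and Dusp14. Without dark libraries 1 and 6 the count of members called for the interaction was 4 (3078 genes in all, against 1266 in the reported fit). All interaction calls held in each fit that left out 1 library. None held with the hippocampal covariate (adjusted p from 0.138 to 0.985) or with the cortical excitatory covariate (from 0.0583 to 0.984), and no gene in all was called with the former. The interaction rests on the same dark mice whose marker sums stood apart.

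**Figure D3:**
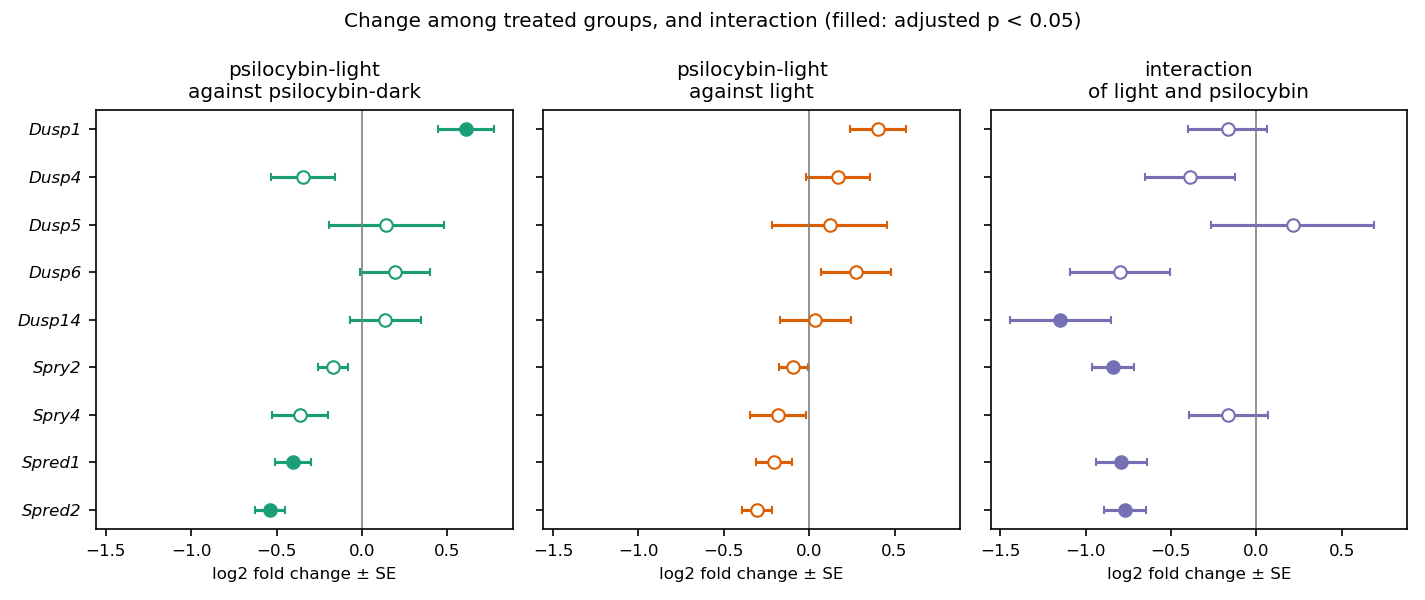
Log2 fold change ± SE (horizontal axis) of each member between psilocybin-light and psilocybin-dark mice, between psilocybin-light and light mice, and for the interaction, with filled points for an adjusted p under 0.05. Dusp1 lies to the right of 0 and Spred1 and Spred2 to the left in the first panel, no point is filled in the second, and Dusp14, Spry2, Spred1 and Spred2 are filled below 0 in the third.

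Other genes of the pathway were taken from lists drawn up by known role, with earlier results of these data known. Among 6 other MAP kinase phosphatases, Dusp7, a cytoplasmic ERK phosphatase, was higher than dark in the light (0.56 ± 0.12, adjusted p = 0.00107), psilocybin-dark (0.65 ± 0.12, adjusted p = 0.000428) and psilocybin-light (0.50 ± 0.12, adjusted p = 0.00192) groups. Its interaction was -0.70 ± 0.17 (adjusted p = 0.0124). Dusp9 was scarce, with at most 17 counts in any dark and 16 in any psilocybin-dark library and up to 32 in light and 36 in psilocybin-light libraries. It passed the filter of 30 counts only through the last 2 groups, so its mean of 10.8 ± 5.98 normalized counts in dark and 26.5 ± 4.58 in psilocybin-light mice is given as a description. Dusp2, Dusp8, Dusp10 and Dusp16 were called in none of the 7 comparisons. Of the other Sprouty and Spred genes, Spred3 was called higher than dark in psilocybin-dark mice alone (0.35 ± 0.11, adjusted p = 0.0266). In psilocybin-light against dark mice it was at 0.28 without being called. The direct comparisons did not call it either, at 0.24 in psilocybin-dark against light and -0.07 in psilocybin-light against psilocybin-dark. Spry1 was called in none, and Spry3 was not analysed here.

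Regulators of Ras moved in both directions. Of 14 genes, 2 were higher and 7 lower in light than in dark mice, against 31.9% of all genes called. The list median was -0.14, against -0.01 for all genes. Rasgrf2 (0.78) and Rasgrp1 (0.63), both exchange factors that activate Ras, were higher, and Il17rd (-0.88), a membrane inhibitor of growth factor signalling, Cbl (-0.54), a ubiquitin ligase, and Rasa1 (-0.42), a Ras-inactivating protein, had the largest falls. In psilocybin-dark mice 2 were higher and 5 lower, and in psilocybin-light mice 2 and 7, against 24.7% and 38.4% of all genes called. Nf1, which encodes the neurofibromin that Spred proteins bind, was lower in psilocybin-light than in psilocybin-dark mice (-0.44 ± 0.09, adjusted p = 0.00632), as were Rasa1 (-0.24) and Sos2 (-0.16), an exchange factor.

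The counts for light in the next 3 lists stand against 31.9% of all genes called. Of 12 genes for Ras, Raf, MEK and ERK, 2 were higher and 3 lower in light. Among them were Mapk3, which encodes an ERK (-0.49 ± 0.17, adjusted p = 0.0333), and Map2k2, which encodes a MEK (0.23 ± 0.04, adjusted p = 0.00022). In psilocybin-dark mice Mapk3 and Araf were lower and none was higher, against 24.7% of all genes called. Of 11 p38 and JNK kinases, 3 were higher and 2 lower in light, with Mapk11, a p38 kinase, at 1.43 ± 0.13, the largest change of that list. Of 11 other genes transcribed downstream of ERK, 4 were higher and 1 lower in light. Egr1 (1.88 ± 0.23), Fos (1.26 ± 0.23) and Etv5 (0.75 ± 0.16), all transcription factors, rose most, and Ccnd1, a cyclin, was at -0.89 ± 0.22. In the interaction 3 genes of this list were called below 0 and 1 above, with Egr1 at -1.48 and Ccnd1 at 1.01, against 8.75% of all genes called. The list medians for light were -0.09, 0.08 and 0.25 for these 3 lists, and 0.78 for the 5 member phosphatases and 0.31 for the 4 member Sprouty and Spred genes.

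**Figure D4:**
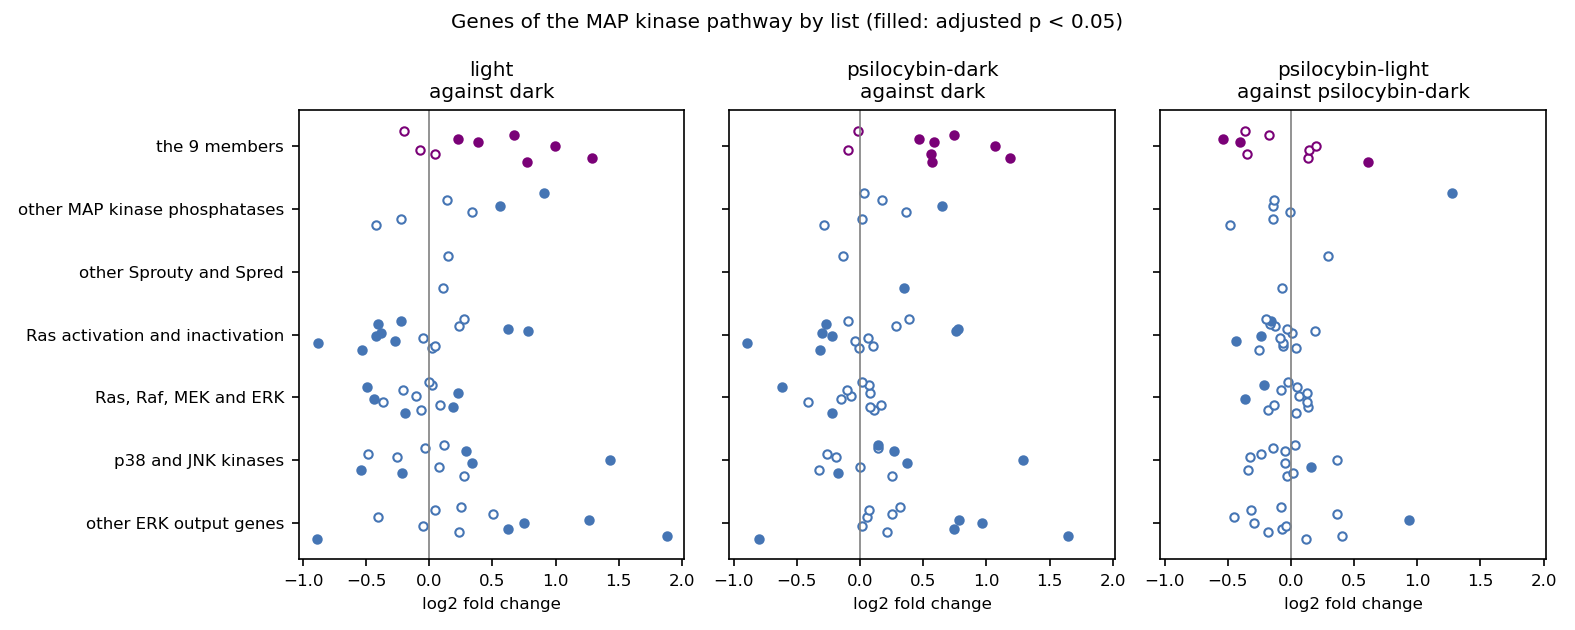
Log2 fold change (horizontal axis) of each tested gene, by list, in light and psilocybin-dark mice against dark mice and in psilocybin-light against psilocybin-dark mice, with filled points for an adjusted p under 0.05. The members lie mostly to the right of 0 in the first 2 panels, where the Ras regulators lie on both sides.

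The genes most like each member were found by Pearson's r of log2 CPM over the 24 libraries, limited to those whose mean count reached 100, and are given as a description. For Dusp1 they were Fos (0.94), Ier2 (0.92) and Arc (0.88), all early activity genes. For Dusp6 they were Nr4a1 (0.97), an early nuclear receptor gene, Adrb1 (0.95) and Rbm24 (0.94). After the mean of each group was removed, r was 0.82 between Dusp1 and Fos and 0.95 between Dusp6 and Nr4a1.

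Dusp14 was most like Cdk5r2, Emx1 and Fmnl1 (each 0.98). Emx1 is a transcription factor of cortical excitatory neurons, and r with it was 0.95 within groups. Dusp4 was most like Midn (0.87), Gpr3 (0.85) and Stk40 (0.80). Dusp5 was most like Boc (0.90), Chn2 (0.89) and Ntn4 (0.88).

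Spry2 was most like Il17ra (0.96), Ubtd2 (0.95) and R3hdm2 (0.94), and Spry4 like Kdm6b (0.80), Kdm2a (0.74) and Cep85l (0.70), the lowest values among the members. Spred1 was most like Tacc1 (0.96), Itgav (0.93) and Shank1 (0.92). Among the genes most like Spred2 were Spred1 (0.88) and Ptprj (0.88), the one case in which a member was among the 3 genes most like another. Between Spred1 and Spred2 r was 0.85 within groups. The 24 points include the libraries that stood apart by their markers, and both values of a point come from the same library and share its depth.

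Dusp5, Dusp6 and Dusp14 were set against the markers in each library. Dusp5 was high in the 4 libraries with cerebellar markers, at 509.9, 1070.1, 584.6 and 556.8 counts in libraries 1, 6, 12 and 18, against 185 to 555 in the other 20. Dusp14 was low in libraries 1 (185) and 6 (392), and was 459 to 806 in the other 4 dark mice, whose cerebellar markers summed to 65.5 to 133 CPM. Those 4 mice were all below the lowest light mouse (1002). Their markers also differed from those of light mice. Their hippocampal sums were 261 to 528 CPM, against 154 to 206 CPM in the light group. The cerebellar sums of light libraries 13 to 17 were 31.4 to 44.1 CPM. In the edgeR fit with the hippocampal covariate the log2 fold change of Dusp14 between light and dark was 0.63 (adjusted p = 0.326). With the cortical excitatory covariate it was 0.36 (adjusted p = 0.0571), and with the cerebellar covariate Dusp14 was still called. The part of these markers in the Dusp14 difference was not tested beyond these fits.

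**Figure D5:**
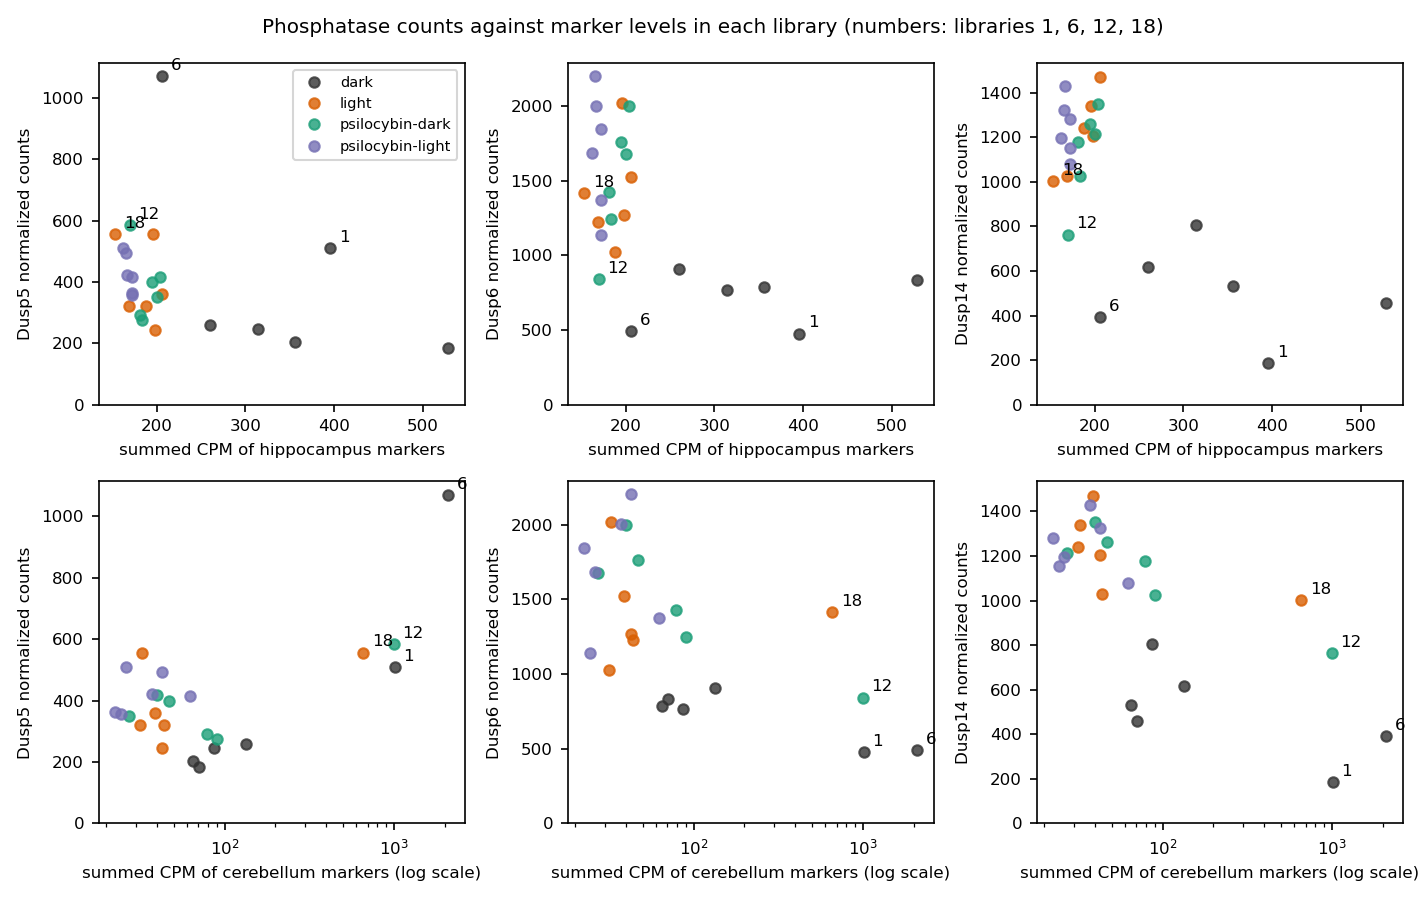
Normalized counts of Dusp5, Dusp6 and Dusp14 (vertical axes from 0) in each mouse against the summed CPM of hippocampal markers (top, linear axis) and cerebellar markers (bottom, log axis), coloured by group, with libraries 1, 6, 12 and 18 numbered. The dark mice are spread along the hippocampal axis at 207 CPM and above, and the numbered libraries stand at 661 CPM or more on the cerebellar axis.

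Several members lie beside other genes in GRCm39, and the strand setting of the counting is not given in the sources used here. Dusp1 (chromosome 17, 26724564 to 26781102, minus strand) shares 38 exonic bases with Ergic1 on the opposite strand, which reached 2575 counts, so reads from those bases cannot be told apart without strand. Dusp5 (chromosome 19, 53517532 to 53530862, plus strand) and Dusp6 (chromosome 10, 99086564 to 99103361, plus strand) share 555 and 94 exonic bases with antisense genes that reached 12 and 2 counts. Gm56965 and Gm62623, not analysed here, share 685 bases with Dusp6 and 564 with Spry2. Dusp4 lies on chromosome 8 (35274442 to 35287048), Dusp14 on chromosome 11 (83938521 to 83960087) and Spry2 on chromosome 14 (106128766 to 106136446). Spred1 lies on chromosome 2 (116951524 to 117018277), Spred2 on chromosome 11 (19874355 to 19974442) and Spry4 on chromosome 18 (38719300 to 38736025).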

How the data were processed

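RNA of the visual cortex of 24 mice was sequenced after poly-A selection. The authors trimmed reads with cutadapt, mapped them with STAR and counted them per gene with htseq-count, and deposited raw counts. The methods name GRCm39 and the submitters' processing notes mm10; the annotation release and strand setting are not given in the sources used here. All 24 count columns were used. The drug is named in the sample labels, but the light exposure was taken from the headings of the study's supplementary count table, which the sample labels contradict.

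The analysis used edgeR 4.0.16 under R 4.3.3. A gene was kept if any library held 30 or more counts (14464 of 55414). After TMM scaling, edgeR's quasi-likelihood model, having a term for each group, took in the 24 libraries together (common biological coefficient of variation 0.182). Tests were two-sided, adjusted by Benjamini-Hochberg over the genes tested, and called at an adjusted p under 0.05. An SE is the absolute log2 fold change divided by the square root of F, and 95% intervals use the t distribution with the fit's degrees of freedom. Normalized counts are scaled to 16058300 counts. Log2 CPM used a prior count of 2. On simulated counts with known changes the model was tested first. Gene names, positions and exon lengths come from GENCODE vM39 on GRCm39.

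The members and lists were chosen with earlier results of these data known. The text names all 9 members; up to 3 genes per direction of each list with the largest change among those called; all other MAP kinase phosphatases, Sprouty and Spred genes; and the 3 genes most like each member, of which 1 is not reported here. Littermates were randomly assigned and no litter is given for any mouse, so p-values measure the spread between these mice. DESeq2 1.42.0, its size factors, filterByExpr, no filter, the compared groups alone, 1 surrogate variable (sva 3.50.0), the hippocampal covariate, stricter thresholds, the sample labels' exposure, and leaving out libraries were alternatives. Leaving out libraries 1, 6, 12 and 18 together, and the cerebellar and cortical excitatory covariates, were added after seeing the data.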

Additional observations from a re-analysis of the deposited data

Results flagged for a closer look

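Each member was screened in each group of 6 mice for a highest or lowest mouse far from the rest by Dixon's ratio (above its 95% critical value), 36 groups in all, of which chance flags about 1 in 20. It marked 2. Dusp5 had 1070.1 normalized counts in dark library 6 (ratio 0.633), and Spry4 had 407 in the same library (ratio 0.64). The sum of cerebellar markers in that library was 2096 CPM, the highest of all.

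In the reported fit 4 members differed between light and dark by different amounts with and without psilocybin, by the test of the interaction. Of all genes 8.75% were called in that test and 4.86% were called below 0. None of the 4 calls held with the hippocampal or the cortical excitatory covariate (0 and 93 genes called in all). The log2 interaction was -1.15 for Dusp14 (adjusted p = 0.0197), -0.84 for Spry2 (adjusted p = 0.00088), -0.79 for Spred1 (adjusted p = 0.00347) and -0.77 for Spred2 (adjusted p = 0.00148), with edgeR's quasi-likelihood test.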

How the results depend on the processing

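Of the 24 changes called among the members, 20 held in every fit that left out 1 library and 4 were lost in at least 1. Counts of members called then ranged from 5 to 6 for light against dark (3937 to 5010 genes in all). They were 6 to 7 for psilocybin-dark against dark (2751 to 4210 genes) and 4 to 5 for psilocybin-light against dark (4907 to 5782). For psilocybin-light against psilocybin-dark they were 2 to 3 (585 to 1249 genes), and for the interaction 4 to 5 (834 to 2092). No member was called in psilocybin-light against light (9 to 155 genes) or psilocybin-dark against light (3 to 346). No paired analysis was possible because no litter or other link between mice of different groups is given in the sources used here. Precision differed between members: the SE for light against dark was 0.09 for Spry2 and 0.34 for Dusp5. The causes of the changes below were not tested. Requiring a log2 change of 1 or more in size left 1 member for light against dark (664 genes in all) and 2 for psilocybin-dark against dark (565). It left 0 for psilocybin-light against psilocybin-dark (7 genes in all) and 1 for the interaction (330). An adjusted p under 0.01 left 1 in psilocybin-light against psilocybin-dark (332 genes in all).

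With the hippocampal covariate 0 members were called in light, psilocybin-dark and psilocybin-light against dark and in the interaction, and 1 in psilocybin-light against light (73 genes in all). With the cortical excitatory covariate 1, 1, 1, 1 and 0 were called in light against dark, psilocybin-dark against dark, psilocybin-light against light, psilocybin-dark against light and the interaction (2805, 785, 160, 343 and 93 genes in all). With the cerebellar covariate 2 were called in psilocybin-light against light and 2 in psilocybin-dark against light (217 and 777 genes in all, against 88 and 66 in the reported fit). The counts were also 2 and 2 without libraries 1, 6, 12 and 18 (331 and 852 genes), where 5 were called in psilocybin-light against psilocybin-dark (2434 genes, against 923). Without libraries 12 and 18, or with 1 surrogate variable, 1 was called in psilocybin-light against light (106 and 291 genes).

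When the exposures were swapped to those the labels state, 6 members were lower in light than in dark (4611 genes called in all). In psilocybin-dark and psilocybin-light against dark 0 and 0 were called (88 and 66 genes in all). In psilocybin-light against light 7 were called (3575 genes), and in psilocybin-light against psilocybin-dark 3 (2 higher, 923 genes). In psilocybin-dark against light 4 were called (5551 genes), and 4 were above 0 in the interaction (1266 genes). The log2 values whose sign changed for light against dark were -0.78 (Dusp1), -0.042 (Dusp4), 0.072 (Dusp5), -0.99 (Dusp6), -1.29 (Dusp14), -0.67 (Spry2), 0.20 (Spry4), -0.39 (Spred1) and -0.23 (Spred2). For psilocybin-dark against dark they were 0.12 (Dusp5), -0.092 (Spry2), -0.20 (Spred1) and -0.31 (Spred2), and for psilocybin-light against dark -0.21 (Dusp1), -0.021 (Dusp5), -0.10 (Dusp14), 0.18 (Spry4) and 0.23 (Spred2). For psilocybin-light against light they were -0.093 (Dusp5), 0.75 (Spry2), 0.59 (Spred1) and 0.47 (Spred2). For psilocybin-light against psilocybin-dark they were -0.61 (Dusp1), 0.35 (Dusp4), -0.14 (Dusp5), -0.20 (Dusp6), -0.14 (Dusp14), 0.17 (Spry2), 0.36 (Spry4), 0.40 (Spred1) and 0.54 (Spred2). For psilocybin-dark against light they were 1.18 (Dusp1), 0.048 (Dusp5), 1.32 (Dusp14), -0.38 (Spry4) and -0.074 (Spred2). For the interaction they were 0.17 (Dusp1), 0.39 (Dusp4), -0.21 (Dusp5), 0.80 (Dusp6), 1.15 (Dusp14), 0.84 (Spry2), 0.16 (Spry4), 0.79 (Spred1) and 0.77 (Spred2).

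Other changes of sign are given by comparison. In light against dark, Dusp4 was -0.30 (hippocampal covariate), -0.27 (cortical), -0.031 (cerebellar), -0.11 (without libraries 1 and 6), -0.059 (without 12 and 18) and -0.22 (without all 4). Dusp5 was 0.58 (cortical), 0.66 (cerebellar), 0.82 (without 1 and 6), 0.69 (without all 4) and 0.30 (surrogate variable). Spred1 was -0.016 (cortical), and Spred2 -0.071 (hippocampal) and -0.091 (cortical). In psilocybin-dark against dark, Dusp5 was 0.57 (cortical), 0.52 (cerebellar), 0.80 (without 1 and 6), 0.64 (without all 4) and 0.30 (surrogate variable), and Spry4 was 0.082, 0.050, 0.037, 0.11 and 0.011 in the same order and 0.066 without 12 and 18. In psilocybin-light against dark, Dusp4 was -0.19 (hippocampal) and -0.070 (cortical), Dusp5 -0.55 (hippocampal) and Spred1 -0.17 (hippocampal), -0.17 (cortical) and -0.071 (cerebellar). Dusp14 in psilocybin-light against light was -0.073 (hippocampal), -0.049 (cerebellar), -0.0096 (without 12 and 18), -0.0074 (without all 4) and -0.062 (surrogate variable), and against psilocybin-dark -0.0038 (cerebellar). Dusp5 in psilocybin-dark against light was 0.0014 (surrogate variable). In the interaction, Dusp1 was 0.22 (hippocampal) and 0.021 (cortical), Spry4 0.026 (hippocampal), and Dusp5 -0.51 (cortical), -0.23 (cerebellar), -0.68 (without 1 and 6) and -0.38 (without all 4). With 1 library left out, ranges that crossed 0 were -0.063 to 0.15 (Dusp4) and -0.22 to 0.49 (Dusp5) for light against dark, -0.25 to 0.46 (Dusp5) and -0.076 to 0.066 (Spry4) for psilocybin-dark against dark, -0.10 to 0.61 (Dusp5) for psilocybin-light against dark, -0.015 to 0.097 (Dusp14) for psilocybin-light against light, -0.18 to 0.10 (Dusp5) and -0.024 to 0.21 (Dusp6) for psilocybin-dark against light, and -0.34 to 0.37 (Dusp5) for the interaction.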
